A study of Mus musculus with 6 samples.

Results

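The immunoglobulin heavy and light chain genes were followed through RNA sequencing libraries of mouse CD34-KSL bone marrow cells, 4 from Elovl6 knockout (KO) mice and 2 from wild-type (WT) mice. KSL cells carry Kit and Sca-1, lack the markers of mature lineages and include the blood stem cells, and Elovl6 is an enzyme that lengthens fatty acids. The labels give the genotype as the only difference between the groups and name no age, no strain and no construct of the knockout, and they do not tie libraries to animals. P-values therefore cover the scatter among these 6 libraries, which may be technical. Genes were taken by symbol: all V genes of the heavy, kappa and lambda chains and all constant genes, with at least 5 counts summed over the 6 libraries. Such a symbol belonged to 361 of the 51826 genes listed, of which 244 had 0 counts, 47 had fewer than 5, and 70 were kept. The 70 comprise 34 heavy V, 25 kappa V and 3 lambda V genes, 6 heavy constant genes (Ighm, Ighd, Ighg3, Ighg2b, Ighg2c and Igha), the kappa constant gene Igkc and the lambda constant gene Iglc2. Just inside the minimum lay Ighv6-4, Ighv10-3, Ighv1-76 and Igkv16-104 with 5 counts each, and just outside it Iglc1, Ighv2-2, Igkv19-93 and Ighv7-3 with 4 each.

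An antibody is made of heavy and light chains, and each chain joins a variable region, encoded by a V gene joined in the DNA to short D or J segments, to a constant region. A B cell assembles its chains by cutting and rejoining DNA, so 1 cell and its descendants normally read a given V gene for each chain, and the V genes in a bulk sample reflect which B-lineage cells are in it. The heavy chain first uses the Ighm constant gene, with Ighd beside it, and can later switch to an Ighg or Igha gene. Light chains are of kappa or lambda class, kappa being the usual class in mice, and stem cells have not yet rearranged any of these genes.

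Printed here are the last 90 coding bases of 6 V genes, read 5′ to 3′ from GENCODE M21 transcripts (GRCm38), with the last in-frame cysteine codon in capitals. That cysteine closes the variable domain's disulfide bridge, and the joint with a D or J segment lies downstream of it. The sequences are those of the reference and not of the rearranged genes in these cells. Iglv2 and Ighv10-1 are shown because they differed between the groups, Ighv7-1 and Igkv15-103 because they were read in the same libraries of both groups, and Ighv11-2 and Igkv14-126 because both were read in 1 WT library alone.
Iglv2 (chr16:19260401-19260490, minus strand): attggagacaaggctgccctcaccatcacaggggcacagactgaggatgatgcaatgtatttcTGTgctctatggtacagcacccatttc
Ighv10-1 (chr12:114479005-114479094, minus strand): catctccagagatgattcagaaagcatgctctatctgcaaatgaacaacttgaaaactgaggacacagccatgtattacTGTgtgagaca
Ighv7-1 (chr12:113896408-113896497, minus strand): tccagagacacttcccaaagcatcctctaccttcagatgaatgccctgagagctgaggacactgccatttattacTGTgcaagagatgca
Igkv15-103 (chr6:68437836-68437925, plus strand): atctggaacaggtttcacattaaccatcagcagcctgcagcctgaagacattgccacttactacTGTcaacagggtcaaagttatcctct
Ighv11-2 (chr12:114048241-114048330, minus strand): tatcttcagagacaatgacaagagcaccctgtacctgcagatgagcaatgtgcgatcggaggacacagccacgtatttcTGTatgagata
Igkv14-126 (chr6:67896553-67896642, plus strand): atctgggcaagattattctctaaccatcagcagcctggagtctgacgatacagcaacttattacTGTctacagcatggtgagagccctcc

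Sequencing depth and cell identity were examined first. Counts assigned to genes ranged from 2121240 to 5137628 in KO libraries and were 3569449 and 3812524 in WT libraries. Elovl6 had 106, 61, 56 and 18 counts in KO libraries 1 to 4, against 111 and 147 in WT libraries 1 and 2, and its log2 fold change of -1.12 (SE 0.32) was not past the threshold (adjusted p = 0.346, edgeR quasi-likelihood test). Stem cell markers had summed levels of 2619 to 3623 CPM (counts scaled to a common library size) in KO and 3174 to 3377 CPM in WT libraries, and Kit alone had 966 to 1444 CPM in KO and 1224 to 1303 CPM in WT libraries. Cd34 mRNA was read at 305 to 417 CPM in KO and 310 to 342 CPM in WT libraries.

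Immunoglobulin RNA made up a small part of each library and its total overlapped between the genotypes. The 70 genes had 9897, 2685, 1617 and 1616 counts in KO libraries 1 to 4, against 6778 and 2124 in WT libraries 1 and 2. These counts were 0.193%, 0.0569%, 0.0574% and 0.0762% of the KO libraries and 0.190% and 0.0557% of the WT libraries. KO library 1 and WT library 1 therefore stood well above the other 4, and the groups overlapped. Summed levels averaged 978 ± 687 CPM in KO (SD, n = 4) and 1210 ± 928 CPM in WT libraries (SD, n = 2). The log2 ratio of these means was -0.31, with p = 0.933 in an exact two-sided permutation test over libraries, in which 2 against 4 libraries can give no p below 0.133. These counts leave out nearly all reads of Igkc, of whose exon reads 0.430% were placed uniquely. By total exon reads, which include reads not placed uniquely, the means were 1100.5 ± 745.5 CPM in KO and 1261.7 ± 1067.5 CPM in WT libraries. That log2 ratio was -0.20, with p = 0.933 in the same permutation test. In bulk RNA, fewer cells of a type and less RNA per cell cannot be told apart, and this holds for each level given here.

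Against this overlapping total, 3 members were lower in KO cells and all other members tested gave no call. Counts were tested with edgeR over all genes, and a call is an adjusted p under 0.05. Of the 70 members 17 had enough counts to be tested. Iglc2, Iglv2 and Ighv10-1 fell and 0 of the 17 rose. Over all 11969 genes tested 0.159% were called, with 0.0668% lower and 0.0919% higher in KO. KO libraries lay below WT libraries without overlap in 3 of the 17, against 10.3% of all genes tested. Non-overlap in either direction held for 20.3% of all genes tested. The 17 had a median log2 fold change of 0.12 with 9 positive values, and all genes tested had a median of 0.01. A gene read well in 2 libraries can pass the filter through those libraries alone, so these counts over the members that passed describe them and were not used as evidence on the other 53.

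Iglc2, the constant region of a lambda light chain (chr16:19198396-19200351, minus strand), had the smallest p of the members. It had 33, 3, 3 and 4 counts in KO libraries 1 to 4, against 434 and 269 in WT libraries 1 and 2. Every KO library lay far below both WT libraries, although KO library 1 had the greatest depth of the 6. The log2 fold change was -5.06 (SE 0.54, adjusted p = 0.00556, edgeR quasi-likelihood test). All of its reads were placed uniquely, and 43 of its 562 stretches of 50 bases also occur in Iglc3.

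Iglv2, a lambda V gene (chr16:19260401-19260859, minus strand) whose end is printed above, followed Iglc2. It had 0, 0, 1 and 1 counts in KO libraries 1 to 4, against 133 and 49 in WT libraries 1 and 2. The groups did not overlap. With counts pooled over the libraries of each genotype, the WT-to-KO ratio of levels was 179 with a 95% counting interval of 48.7 to 1485. That interval leaves out the spread between libraries. The log2 fold change was -7.14 (SE 0.80, adjusted p = 0.00667, edgeR). Its near copy Iglv1 matches it at 96.9% of coding bases and had 0 counts in all 4 KO libraries, against 45 and 1 in WT libraries 1 and 2. Iglv3 was listed with 7 counts in WT library 2 and 0 in the other 5 libraries. All 3 lambda V genes thus had at least 5 counts in a WT library and none had them in a KO library.

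Ighv10-1, a heavy V gene (chr12:114479005-114479451, minus strand), was the remaining call. It had 0, 0, 1 and 0 counts in KO libraries 1 to 4, against 81 and 19 in WT libraries 1 and 2. The groups did not overlap. With counts pooled in the same way, the WT-to-KO ratio of levels was 196 with a 95% counting interval of 34.4 to 7824, again without the spread between libraries. The log2 fold change was -7.04 (SE 1.02, adjusted p = 0.0308, edgeR). Its counts went with those of Iglv2 in both WT libraries, at 1.64 and 2.58 Iglv2 counts for each Ighv10-1 count. Of its stretches of 50 bases 22.3% also occur in Ighv10-3, which had 5 counts in WT library 1 and 0 elsewhere.

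These calls rested on few libraries. Leaving out a WT library leaves a lone WT library, so such fits cannot show whether the calls hold and are given by fold change only. Without WT library 1 the log2 fold changes were -4.65 for Iglc2, -6.14 for Iglv2 and -5.56 for Ighv10-1 in edgeR. Without WT library 2 they were -5.40 for Iglc2, -7.70 for Iglv2 and -7.74 for Ighv10-1. The latter fit takes in genes read in WT library 1 alone, such as Igkv5-43 with 165 counts. No calls are counted from either fit. Ighv10-1 lost its call without KO library 1, 2 or 3. Its log2 fold changes were then -6.60, -6.61 and -8.71, with adjusted p-values of 0.0545, 0.0932 and 0.116 in edgeR. In limma-voom Iglc2 alone was called, and with no filter on low counts edgeR called 23 of 70 members, 9 higher and 14 lower in KO, against 307 of 18189 genes (1.69%), 229 higher and 78 lower.

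**Figure D1:**
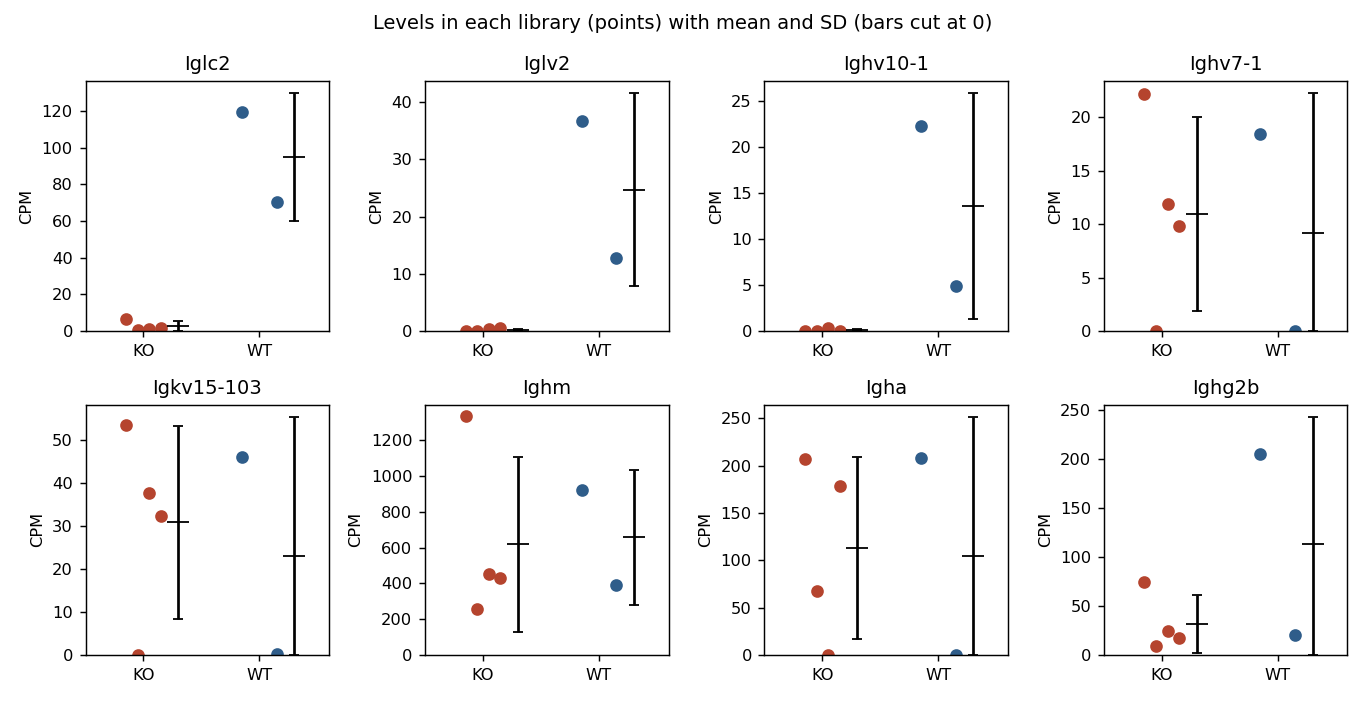
Levels in CPM of 8 immunoglobulin genes in each KO library (left, 4 points) and each WT library (right, 2 points), with the mean and SD as a bar beside them. Iglc2, Iglv2 and Ighv10-1 lay lower in all KO libraries than in both WT libraries, while the groups overlapped for the other 5 genes.

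By light chain class, kappa V genes were read in all 6 libraries and lambda V genes mainly in WT. Kappa V genes had 923, 256, 155 and 174 counts in KO libraries 1 to 4, against 600 and 69 in WT libraries 1 and 2. Lambda V genes had 0, 0, 1 and 1 counts in KO libraries, against 178 and 57 in WT libraries. Lambda made up 0%, 0%, 0.641% and 0.571% of light chain V counts in KO libraries 1 to 4, against 22.9% and 45.2% in WT libraries 1 and 2. The exact (Clopper-Pearson) 95% intervals reached at most 3.52% in KO libraries and started at 19.97% and 36.4% in WT libraries, and they cover counting error only. The means were 0.303% ± 0.351 in KO (SD, n = 4) and 34.1% ± 15.8 in WT (SD, n = 2), a difference of -33.8 percentage points with p = 0.133, the smallest that the exact two-sided permutation test allows here.

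The constant genes gave the same order, but their values depended strongly on which reads were counted. In the deposited expression values Igkc, the constant region of every kappa chain (chr6:70726435-70726966, plus strand), had 11, 7, 2 and 2 counts in KO libraries 1 to 4, against 5 and 1 in WT libraries 1 and 2. In the authors' total exon reads, which include reads not placed uniquely, it had 2817, 1101, 516 and 537 in KO libraries, against 1396 and 150 in WT libraries. Only 0.430% of its exon reads were unique. Igkc shares 0 stretches of 50 bases with any other GENCODE M21 transcript and lies inside the long noncoding gene Gm43291 on the same strand. Iglc1, another lambda constant gene that misses the minimum of counts, shares 0 such stretches too and lies inside 2010309G21Rik, and 0.602% of its exon reads were unique. Whether the overlap sets these low unique shares was not tested.

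Counted by expression values, lambda made up 75%, 30%, 60% and 66.7% of light chain constant counts in KO libraries 1 to 4, against 98.9% and 99.6% in WT libraries 1 and 2. These KO shares rest on 44, 10, 5 and 6 counts and leave out nearly all kappa reads. Counted by total exon reads over all rows of the class, lambda made up 1.64%, 1.61%, 1.53% and 3.94% in KO libraries 1 to 4, against 45.2% and 65.9% in WT libraries 1 and 2. Every KO library lay below both WT libraries in either count. The differences of the means were -41.3 percentage points by expression values and -53.4 by total exon reads, each with p = 0.133 in the exact permutation test, the smallest it allows.

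Total exon reads also separated the lambda genes within WT. Iglc1 had 6, 15, 0 and 2 such reads in KO libraries 1 to 4, against 633 and 8 in WT libraries 1 and 2. Iglc3 had 8, 0, 5 and 16 in KO libraries, against 85 and 13 in WT libraries. Iglv1 had 1, 1, 0 and 3 in KO libraries, against 238 and 2 in WT libraries. WT library 1 thus held reads of Iglc1 and Iglv1 beside those of Iglc2 and Iglv2, while WT library 2 held mainly Iglc2 and Iglv2. KO and WT libraries overlapped for Iglc1, Iglc3 and Iglv1. Per length, Igkc was at 348, 135, 81.5 and 87.7 RPKM in KO libraries 1 to 4, against 229.5 and 20.5 RPKM in WT libraries 1 and 2, and Iglc2 was at 3.55, 0.320, 0.412 and 0.568 RPKM in KO against 62.0 and 32.0 RPKM in WT. Igkc thus lay above Iglc2 in all 4 KO libraries and in WT library 1, and below it in WT library 2.

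**Figure D2:**
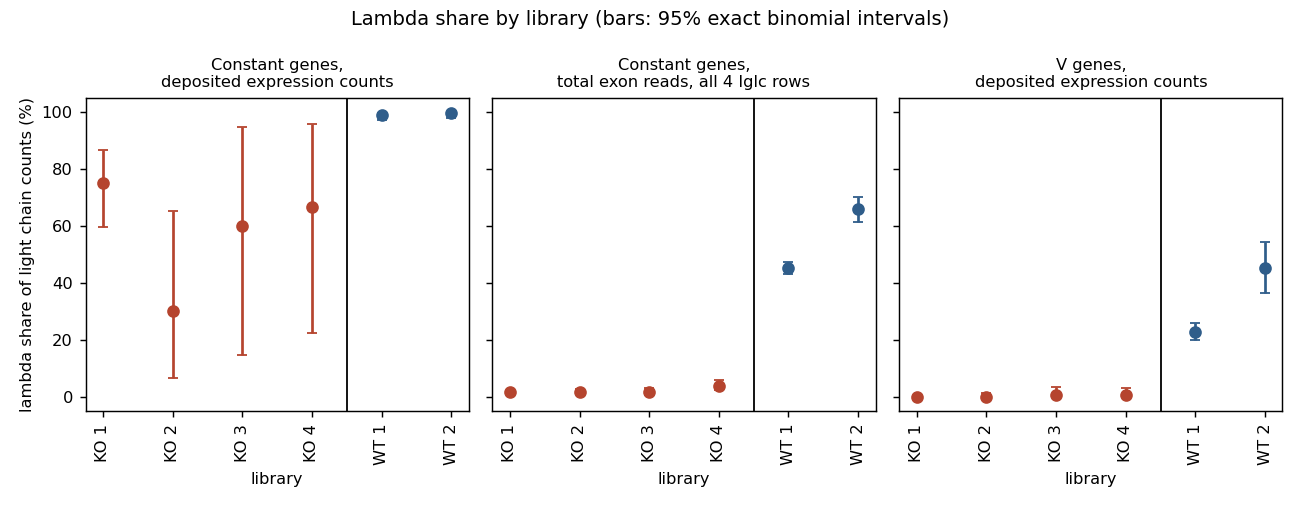
Lambda share of light chain reads (percent, vertical axis) in KO libraries 1 to 4 and WT libraries 1 and 2, with 95% exact binomial intervals, for constant genes by expression counts, constant genes by total exon reads, and V genes by expression counts. KO libraries lay below WT libraries in each panel, and the KO shares by constant expression counts stood far above those by total exon reads.

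Of the heavy constant genes 0 were called, Ighg2c having too few libraries with counts to be tested, and Ighm was the most read in every library. Ighm, the constant region of IgM (chr12:113418558-113422730, minus strand), had 6639, 1221, 1294 and 877 counts in KO libraries 1 to 4, against 3359 and 1495 in WT libraries 1 and 2. The groups overlapped, and the log2 fold change was -0.08 (SE 0.54, adjusted p = 0.975, edgeR). It made up 82.1%, 56.3%, 93.9% and 68.0% of heavy constant counts in KO libraries, against 68.6% and 92.5% in WT libraries. Per length it was at 232, 42.3, 57.6 and 40.4 RPKM in KO libraries, against 156 and 57.8 RPKM in WT libraries. Ighd, which is spliced from the same transcript as Ighm in naive B cells, had 30, 35, 13 and 10 counts in KO libraries, against 20 and 12 in WT libraries, and a log2 fold change of 0.42 (SE 0.53, adjusted p = 0.825, edgeR).

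Switched constant genes varied widely among the libraries of each genotype. Igha, the constant region of IgA, had 1027, 324, 0 and 364 counts in KO libraries 1 to 4, against 758 and 0 in WT libraries 1 and 2. It was thus at 0 in a library of each genotype, and its log2 fold change was 0.12 (SE 1.38, adjusted p = 0.986, edgeR). Ighg2b, of an IgG subclass, had 372, 45, 71 and 36 counts in KO libraries, against 746 and 79 in WT libraries. WT library 1 was the highest of the 6, and the log2 fold change of -1.79 (SE 0.79, adjusted p = 0.498, edgeR) became 0.65 without that library. With no filter on low counts edgeR called Ighg2b (log2 fold change -1.78, adjusted p = 9.97e-07) and Ighg2c.

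Ighg2c, of another IgG subclass, had 2, 544, 0 and 0 counts in KO libraries 1 to 4, against 0 and 3 in WT libraries 1 and 2. KO library 2 held 99.1% of its counts. Ighg3 had 20, 0, 0 and 3 counts in KO libraries, against 12 and 27 in WT libraries, and a log2 fold change of -1.81 (SE 1.11, adjusted p = 0.623, edgeR). Together the Ighg and Igha genes made up 17.6%, 42.1%, 5.15% and 31.2% of heavy constant counts in KO libraries 1 to 4, against 31.0% and 6.74% in WT libraries 1 and 2. The lowest and the highest share were both in KO libraries.

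**Figure D3:**
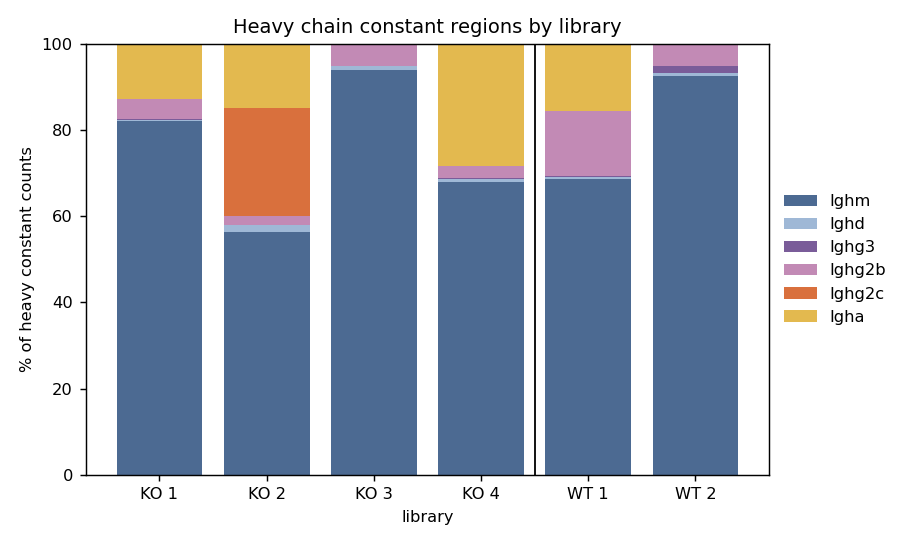
Share of heavy constant counts (percent, vertical axis) taken by 6 constant genes in KO libraries 1 to 4 and WT libraries 1 and 2. Ighm takes the largest part in every library, Ighg2c is visible in KO library 2 alone, and Igha is missing in KO library 3 and WT library 2.

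The leading V genes differed between most libraries. In KO libraries 1 and 2 Ighv1-26 led the heavy V counts with 30.5% of 840 and 34.8% of 250. In KO library 3 Ighv9-3 held 47.4% and Ighv7-1 43.6% of 78 counts, and in KO library 4 Ighv5-12 held 49.7% of 145. In WT library 1 Ighv11-2 led with 21.02% of 666 counts, and in WT library 2 Ighv1-55 held 72.3% of 112. No gene led in libraries of both genotypes, and Ighv1-26 alone led in more than 1 library.

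Kappa V genes were likewise dominated by a few genes. Igkv1-135 held 45.2% of 923 counts in KO library 1, Igkv6-15 held 85.9% of 256 in KO library 2, and Igkv15-103 led with 69.7% of 155 in KO library 3 and 37.9% of 174 in KO library 4. In WT library 1 Igkv15-103 held 27.8% and Igkv5-43 27.5% of 600 counts, and in WT library 2 Igkv12-89 held 82.6% of 69. Igkv15-103 was thus the leading kappa V gene in 3 libraries, of both genotypes. Igkv6-15 had 220 counts in KO library 2 and 0 elsewhere. Its pooled KO level was 37.4-fold above a floor of 3 counts over the WT libraries, but it was read in 1 of 4 KO libraries only. Igkv5-43 had 165 counts in WT library 1 and 0 elsewhere. Its pooled WT level was 108-fold above the same floor over the KO libraries, and it was read in 1 of 2 WT libraries.

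Most V genes belonged to 1 library. Of 62 V genes 34 had at least 90% of their counts in 1 library, and 0 reached 5 counts in all 6 libraries. A level of 5 counts was reached in 1 library by 38 genes, in 2 libraries by 12, in 3 by 4, in 4 by 2 and in none by 6. By genotype, 32 genes reached it in KO libraries alone, 15 in WT libraries alone and 9 in both, where KO had 4 libraries and WT had 2. KO library 1 and WT library 1, the richest in immunoglobulin counts, shared 8 V genes, which is 30.8% of 26 and 40% of 20. WT library 2 shared 0 of its 7 with any KO library and 3 with WT library 1, namely Ighv1-55, Ighv10-1 and Iglv2.

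The concentration of counts on few V genes overlapped between the genotypes. The share of pairs of heavy V counts that fall on the same gene was 18.05%, 17.2%, 41.0% and 30.7% in KO libraries 1 to 4, against 13.6% and 55.1% in WT libraries 1 and 2. Both the lowest and the highest value were in WT libraries, and the difference of the means was -7.59 percentage points (p = 0.8, exact permutation test). For kappa V genes it was 29.8%, 74.3%, 52.9% and 24.5% in KO libraries, against 21.8% and 69.1% in WT libraries, a difference of -0.089 percentage points (p = 0.933, exact permutation test). By family, Ighv1, with 19 of the 34 heavy V genes, made up 48.2%, 51.6%, 2.56% and 35.2% of heavy V counts in KO libraries, against 37.8% and 82.1% in WT libraries.

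**Figure D4:**
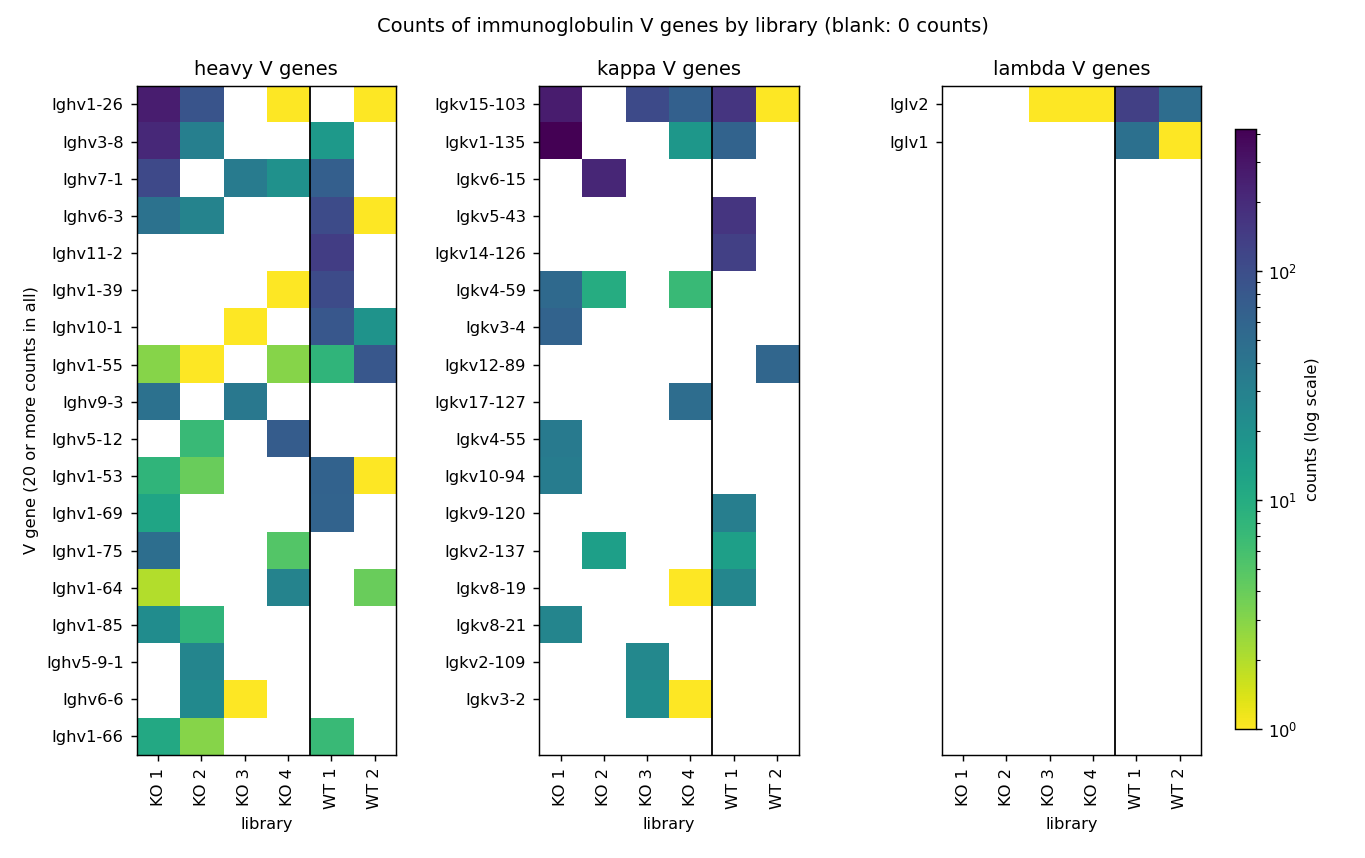
Counts (colour, log scale) of V genes with 20 or more counts in all, by chain, in KO libraries 1 to 4 (left of the line) and WT libraries 1 and 2 (right of it), with blank cells for 0 counts. Most rows are coloured in 1 or 2 libraries, Ighv7-1 and Igkv15-103 share 4 libraries (Igkv15-103 also has 1 count in WT library 2), and lambda V genes are coloured mainly in WT.

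A few V genes were read in several libraries. Ighv7-1 had 110, 0, 34 and 20 counts in KO libraries 1 to 4, against 67 and 0 in WT libraries 1 and 2. Igkv15-103 had 265, 0, 108 and 66 counts in KO libraries, against 167 and 1 in WT libraries. Both were thus read in KO libraries 1, 3 and 4 and in WT library 1, and next to absent in KO library 2 and WT library 2. The number of Igkv15-103 counts for each Ighv7-1 count was 2.41, 3.18 and 3.30 in those KO libraries and 2.49 in WT library 1, with overlapping 95% counting intervals. Neither was called, at log2 fold changes of 0.42 (SE 1.25, adjusted p = 0.935) for Igkv15-103 and 0.26 (SE 1.29, adjusted p = 0.965) for Ighv7-1 in edgeR. At 5 or more counts, 13 heavy and 5 light V genes were read in 2 or more libraries. Of their 65 possible pairs 3 had an identical set of libraries, and this was the pair with the most libraries. The others were Ighv10-1 with Iglv2 and Ighv1-55 with Iglv2, both in WT libraries 1 and 2. Neither Ighv7-1 nor Igkv15-103 shares a stretch of 50 bases with another gene.

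Ighv11-2 and Igkv14-126 appeared together in WT library 1. Ighv11-2 had 140 counts there and Igkv14-126 had 135, and both had 0 in all other libraries. These genes belong to the VH11 and Vκ9 families, whose pairing is known from mouse B-1a cells that bind phosphatidylcholine. The 2 sequences are printed above. Of the exon reads of Ighv11-2, 40.3% were unique, and 38.6% of its stretches of 50 bases also occur in Ighv11-1. Of its 140 counts 139 were uniquely placed exon reads. In WT library 1 Ighv11-1 had 0 counts and 4 total exon reads, against 345 total exon reads for Ighv11-2. Reads not placed uniquely stay uncertain between these copies.

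Other V genes had large fold changes without a call in the test over all 6 libraries. Ighv1-26 had 256, 87, 0 and 1 counts in KO libraries 1 to 4, against 0 and 1 in WT libraries 1 and 2, and a log2 fold change of 6.78 (SE 2.29, adjusted p = 0.408, edgeR). Igkv4-59 had 53, 10, 0 and 7 counts in KO libraries, against 0 and 0 in WT libraries (adjusted p = 0.408, edgeR). Its pooled KO level was 11.9-fold above a floor of 3 counts over the WT libraries. Both overlapped between the groups, since a KO library was at 0 for each. Ighv9-3 had 44, 0, 37 and 0 counts in KO libraries, against 0 and 0 in WT libraries (adjusted p = 0.453, edgeR). With no filter on low counts edgeR called Ighv1-26, Igkv4-59, Ighv9-3 and Ighv3-8, and in the 4 libraries numbered 1 and 2, where KO libraries 3 and 4 are left out, it called Ighv1-26 (log2 fold change 7.75, adjusted p = 0.00744). Ighv3-8 had 207, 31, 0 and 0 in KO against 16 and 0 in WT, and Ighv6-3 had 43, 28, 0 and 0 in KO against 105 and 1 in WT libraries, at adjusted p-values of 0.653 and 0.657 in edgeR. Of the stretches of 50 bases in Ighv1-26, 49.0% also occur in at least 1 of 11 other genes. Its counts were nearly all uniquely placed exon reads, with 253 of 256 in KO library 1 and 87 of 87 in KO library 2. Total exon reads, which include reads not placed uniquely, were 305 and 96 there.

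An adjusted p under 0.05 was given to 76 of the 51826 genes listed in the authors' deposited table. Of the 70 members 10 had one, all with a negative fold of KO over WT. The direction of the other genes called there was not examined, so this shared sign has no background beside it. The 10 members were Iglv2, Iglc2, Ighv10-1, Igkv5-43, Ighv11-2, Igkv14-126, Ighv1-55, Iglv1, Igkv12-89 and Ighv1-39. That test used the same 6 libraries. For Igkv5-43, Ighv11-2, Igkv14-126 and Igkv12-89, 1 WT library held all counts. WT library 1 held 99.1% of the counts of Ighv1-39 and 97.8% of those of Iglv1.

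Beside the members, 10 lists were read that cover genes acting with immunoglobulins and markers of blood cell types. Of their 82 tested genes 0 were called in edgeR or limma-voom, with 15 (18.3%) at an unadjusted p under 0.05 in edgeR, against 9.9% of all genes tested. The DESeq2 Wald test called 1, the chaperone gene Hspa5. The surrogate light chain genes, which stand in for a light chain before it is rearranged, had summed levels of 36.3 to 251 CPM in KO and 33.3 to 59.4 CPM in WT libraries. Vpreb1 had 282, 27, 37 and 26 counts in KO libraries 1 to 4, against 25 and 74 in WT libraries 1 and 2. Igll1 had 644, 85, 65 and 50 counts in KO libraries, against 58 and 101 in WT libraries. KO library 1 was the highest for both and the groups overlapped. Dntt, which adds bases at V gene joints, had 7767, 1310, 959 and 613 counts in KO libraries, against 827 and 1009 in WT libraries. Scaled to library size it was at 1567, 273, 335 and 300 CPM in KO, above 228 and 263 CPM in WT libraries. The Dntt log2 fold change was 1.34 (SE 0.65, adjusted p = 0.544, edgeR), and 20.3% of all genes tested had groups without overlap. Rag1, which cuts the DNA, had 37, 8, 1 and 4 counts in KO against 3 and 0 in WT libraries. All 12 recombination genes summed to 1092 to 2779 CPM in KO and 955 to 1213 CPM in WT libraries. The 16 genes of B cell receptor signalling summed to 2288 to 2800 CPM in KO and 2225 to 2427 CPM in WT libraries, and the 12 light chain locus and octamer factors to 879 to 1632 CPM in KO and 846 to 868 CPM in WT libraries.

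Markers of other cell types were set beside these results. B-lineage markers, 10 genes of which 9 were tested, had summed levels of 158 to 901 CPM in KO and 129 to 177 CPM in WT libraries, with 9 of 9 log2 fold changes positive, a median of 1.26 and 0 calls. None of the 10 was at 0 in all libraries. Cd79a, a signalling chain of the B cell receptor, had 569, 67, 86 and 78 counts in KO libraries 1 to 4, against 61 and 124 in WT libraries 1 and 2. Pax5, the factor that fixes B cell identity, had 1196, 212, 141 and 180 counts in KO libraries, against 96 and 100 in WT libraries. Scaled to library size Pax5 was at 241, 44.3, 49.2 and 88.1 CPM in KO, above 26.4 and 26.0 CPM in WT libraries. Its log2 fold change was 2.02 (SE 0.63, adjusted p = 0.389, edgeR), and 20.3% of all genes tested had groups without overlap. For Cd79a the groups overlapped. KO library 1 was again the highest for Cd79a and Pax5, whereas its lambda V count was 0. The median of the B-lineage markers was thus positive, while the log2 fold changes of the called lambda genes were negative.

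Secretion and plasma cell genes, 11 in all with 8 tested, had summed levels of 1346 to 1772 CPM in KO and 1183 to 1294 CPM in WT libraries. Tnfrsf17, a plasma cell receptor, stayed under 1 CPM in all 6 libraries. Jchain, which joins IgM and IgA into polymers, was at 78.1, 39.7, 8.03 and 44.5 CPM in KO libraries 1 to 4, against 79.0 and 19.5 CPM in WT libraries 1 and 2. The libraries with 0 counts of Igha had the lowest Jchain levels of their genotype. T-lineage markers had summed levels of 49.4 to 89.2 CPM in KO and 34.4 to 35.9 CPM in WT libraries. Lck was the highest of them in every library, at 26.2 to 56.1 CPM in KO and 25.6 and 25.0 CPM in WT. Cd3g, Trac and Trbc2, parts of the T cell receptor complex, stayed under 1 CPM in all 6 libraries. Erythroid markers had 166 to 2617 CPM in KO and 63.6 to 171 CPM in WT. Neutrophil and monocyte markers had 407 to 9443 CPM in KO and 1324 to 1417 CPM in WT. KO library 4 was the highest in the last pair of lists. The part of these markers in the immunoglobulin results was not tested.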

How the data were processed

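Per the labels' protocols, a phenol-based reagent gave the RNA and the library kit marked strand. Reads were placed on mm10, per the submitters' processing notes. The sources used here do not name the aligner, the counting tool or its use of strand. In 1 table the authors deposited expression values that are read counts per gene, equal in 100% of values to unique exon reads plus junction reads not placed uniquely. The deposited RPKM values use total exon reads. P-values and a signed fold, a score positive where KO is higher, are from the authors' own test per the file headers. Exon length in bases was also deposited, and 42 per-library columns were not used. Positions were raised by 1 to count from 1, and all 361 rows taken by symbol had the position given by GENCODE M21.

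The test was edgeR 4.0.16 under R 4.3.3 on the counts (filterByExpr, TMM, quasi-likelihood F test, genotype as the only term, all 6 libraries), adjusted by Benjamini-Hochberg over 11969 genes at a threshold of 0.05. Alternatives used other size factors, DESeq2 1.42.0, limma 3.58.1, no filter, unique or total exon reads, a replicate block and each library left out. The lambda share of V counts, the total exon reads over all rows of a class and the fit without a block in the libraries numbered 1 and 2 were added after seeing the data. Values per library were compared with exact permutation tests (scipy 1.17.1), and intervals are at 95%. The pipeline was tested on simulated data, in which changed genes were shifted alike in all KO libraries. That simulation does not cover genes read in a single library, as many V genes were. Named genes are all constant genes, V genes with at least 10% of their chain's counts in a library with 20 or more, the 10 V genes with the most counts, called members, the 5 members with the smallest p and 8 fixed genes of the lists, of which 1 is not reported here. Iglc1, Iglc3, Kit, Cd34, Hspa5, Tnfrsf17, Lck, Cd3g, Trac, Trbc2 and the genes in the list of the authors' calls were named outside this rule after their values were seen. Members and lists were chosen with earlier results of these data known.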

Additional observations from a re-analysis of the deposited data

Results flagged for a closer look

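In 17 of 47 values checked, the highest KO library stood apart from the other 3 by Dixon's test at its 95% critical value. Chance flags about 1 in 20 groups, and V genes read in 1 library alone are flagged by their own pattern. KO library 1 stood apart for Igkv1-135 at 84.1 CPM, Ighv3-8 at 41.8 CPM, Vpreb1 at 56.9 CPM, Igll1 at 129.9 CPM, Dntt at 1567 CPM and the summed immunoglobulin level at 1997 CPM. KO library 2 stood apart for Ighg2c at 114 CPM, Igkv6-15 at 45.9 CPM and Ighv5-9-1 at 5.64 CPM. KO library 3 stood apart for Igkv2-109 at 8.73 CPM, Igkv3-2 at 7.68 CPM and Ighv10-1 at 0.349 CPM, where the last rests on 1 count. KO library 4 stood apart for Ighv5-12 at 35.2 CPM, Igkv17-127 at 23.5 CPM, Ighv1-64 at 13.7 CPM, Igkv8-24 at 9.30 CPM and Ighv1-39 at 0.489 CPM, where the last rests on 1 count. Each KO library was flagged at least once among the V genes.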

How the results depend on the processing

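The 3 member calls stayed with DESeq2 size factors, the DESeq2 Wald test, unique exon reads and total exon reads. They became 1 in limma-voom, 23 with no filter, 5 with the replicate block in the libraries numbered 1 and 2 (Ighv1-26 and Ighv3-8 higher, Iglc2, Iglv2 and Ighv10-1 lower in KO), 3 in those libraries without the block (Ighv1-26 higher, Iglc2 and Iglv2 lower), and 0 to 7 when a library was left out, where leaving out a WT library assumes that the lone WT library varies like the KO ones. The 19 calls over all genes became 87, 9, 307 and 34 in the DESeq2, limma-voom, no-filter and block fits, 33 in the same 4 libraries without the block, and 2 to 30 with a library left out. Calls in the lists, 0 in the main test, became 1 in DESeq2, 20 with no filter and 3 with the block. The numbers 1 and 2 did not pair the libraries (r = -0.107 between the KO and WT differences of replicates 1 and 2 over 11969 genes).

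The lambda V difference was -45.2 points by total exon reads, -32.7 over all rows, and -44.9 to -22.6 with a library left out. With a library left out, the log2 ratio of summed levels ran from -0.93 to 0.82, heavy V concentration from -28.3 to 13.2 points and kappa V concentration from -23.7 to 23.6, and the lambda constant difference from -47.0 to -32.0. Ighm turned positive at 0.18, 0.04 and 0.05 without KO library 2, 3 or 4, 0.67 without WT library 1 and 0.29 in the libraries numbered 1 and 2 with no block. Igha turned to -0.38, -0.16 and -0.89 without KO library 1, KO library 4 or WT library 2, and Ighg2b to 0.65 without WT library 1. With each library left out, Ighm ran from -0.81 to 0.67, Igha from -0.89 to 11.71 (without WT library 1, when WT has 0 counts, so no estimate of size) and Ighg2b from -2.76 to 0.65. The cause was not tested. Members with few counts, and 2 WT libraries, limit what can be detected.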
